A study of Homo sapiens with 9 samples.

Results

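Fatty acid synthesis, desaturation and lipid storage were followed through 34 genes in 22Rv1 cells, a human prostate carcinoma line that grew out of a xenografted tumour. They run from the enzymes that supply acetyl-CoA to the lipases that empty lipid droplets, were listed by name, and were matched by symbol to the count table, which lists 67071 gene identifiers, and all 34 were found in it. The cells carried either of 2 short hairpin RNAs against CHD9, shCHD9_1 or shCHD9_2, or the control hairpin shGFP, which is directed against green fluorescent protein. Each group has 3 libraries. The labels call the hairpin cells CHD9 knockdown and the control cells WT, and do not say whether each hairpin was studied in a clone or in a pool of cells, or for how long it was expressed. CHD9 is a chromatin remodeller of the CHD family, and the series text names the comparison of CHD9 knockdown with control knockdown.

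Cells make fatty acids from cytosolic acetyl-CoA, which ATP-citrate lyase forms from citrate. Acetyl-CoA carboxylase and fatty acid synthase turn it into palmitate, elongases lengthen the chain, and desaturases place double bonds in it. Acyl-CoA synthetases activate fatty acids, glycerolipid enzymes join them to a glycerol backbone, and the resulting triacylglycerol is stored in lipid droplets that perilipins coat and lipases empty. The transcription factors SREBP-1 and ChREBP drive many of these genes, and prostate carcinoma is known for high lipid synthesis under androgen control.

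Libraries held 18911142 to 31968602 counts, and 16855 genes passed the filter on low counts. Levels are given as CPM, the count scaled to the library total after TMM normalization, and per kilobase of exon where genes are compared. Counts of libraries of the same group differed by 1.72 to 2.84 times the sampling noise (chi-square per degree of freedom, 9 pairs), against 9.53 to 30.3 for the 27 pairs from different groups. CHD9 itself had 14.8, 16.7 and 14.9 CPM with shCHD9_1, 18.4, 18.8 and 19.3 CPM with shCHD9_2, and 22.8, 20.6 and 23.2 CPM with shGFP, and the 3 groups did not overlap. It fell by 0.52 on the log2 scale with shCHD9_1 (SE 0.07, adjusted p = 7.2e-08) and by 0.24 with shCHD9_2 (SE 0.07, adjusted p = 0.006), where the call was lost without shGFP replicate 3 (a log2 fold change of -0.20, adjusted p = 0.054). All 8 defining markers of prostate luminal epithelium were detected. Their summed level was 1900.0 to 1915 CPM with shCHD9_1, 1748 to 1775 CPM with shCHD9_2 and 1518 to 1549 CPM with shGFP. In the mean of both CHD9 hairpins 5 of the 8 were called higher and 0 lower (22.3% and 23.2% of all genes). The median log2 fold change of the 8 markers was 0.37 and the largest 1.80. All 8 were called higher with shCHD9_1 (23.9% of all genes). With shCHD9_2, 5 were called higher and 2 lower (17.2% and 18.5%). Of 14 markers of adipocytes, liver, stroma, endothelium and leukocytes, 3 passed the filter. The summed level of all 14 was 11.4 to 12.9 CPM with shCHD9_1, 10.5 to 13.8 CPM with shCHD9_2 and 8.63 to 9.13 CPM with shGFP, and ADIPOQ, LEP and CD3E had 0 counts in all 9 libraries. Of the 3 tested, the stromal collagen genes COL1A1 and COL3A1 were higher by 0.52 and 0.89 on the log2 scale in the mean of both CHD9 hairpins. The third, PDGFRB of pericytes, had a log2 fold change of -0.33 (adjusted p = 0.31). The part of these shifts in the results below was not tested.

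Of the 34 genes, 31 passed the filter. ACSL5, DGAT1 and THRSP did not. Averaged over both CHD9 hairpins, 18 of the 31 were called higher, 7 were called lower against shGFP and 6 did not pass the test, at an adjusted p under 0.05 over all genes tested. Of all 16855 genes tested, 45.5% were called in this comparison, 22.3% higher and 23.2% lower. The median log2 fold change of the 31 genes was 0.20, beside 0.0014 over all genes tested, and the median size of the change was 0.23, beside 0.17. The surplus of higher calls depends on processing. With a correction for exonic GC content and length, ACLY, ACACB, AGPAT2, PNPLA2 and MGLL lost their higher calls in this mean. ELOVL5 was then called higher and FADS2 lower. With shCHD9_1, 18 were higher, 7 lower and 6 not passed, where 47.3% of all genes were called, 23.9% higher and 23.4% lower. With shCHD9_2, 10 were higher, 6 lower and 15 not passed, where 35.7% of all genes were called, 17.2% higher and 18.5% lower. The changes were small: 3 of the 31 exceeded 1.5-fold in the mean of both hairpins, as did 8.1% of all genes, and none reached 2-fold, where 2.91% of all genes did. With shCHD9_1, 7 exceeded 1.5-fold, as did 11.0% of all genes. In bulk RNA, less RNA per cell and fewer cells that express a gene cannot be told apart.

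Both hairpins moved 9 genes up and 5 genes down. The genes higher with each hairpin were FADS3, ELOVL1, ACSL1, ACSL6, LPIN1, LPIN2, DGAT2, PLIN3 and MLXIPL, and the genes lower with each were FASN, SCD, FADS1, ELOVL6 and ACSL3. Of all genes tested, 13.2% were called higher and 13.6% lower in the mean and with each hairpin. A further 8 genes were called higher with shCHD9_1 and did not pass with shCHD9_2: ACLY, ACACB, SCD5, ELOVL2, ELOVL4, AGPAT2, PNPLA2 and MGLL. ACSS2 and ACSL4 were called lower with shCHD9_1, and did not pass with shCHD9_2. ELOVL7 was called higher with shCHD9_2 alone, ELOVL5 was called in opposite directions by the hairpins, and ME1, ACACA, FADS2, GPAM and LIPE passed with neither. The 2 hairpin comparisons share the shGFP libraries. The 6 CHD9 hairpin libraries were all above the 3 shGFP libraries for 12 of the 31 genes, all below for 5, and overlapped with them for 14, while 15.5% of all genes tested were above and 16.2% below.

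**Figure D1:**
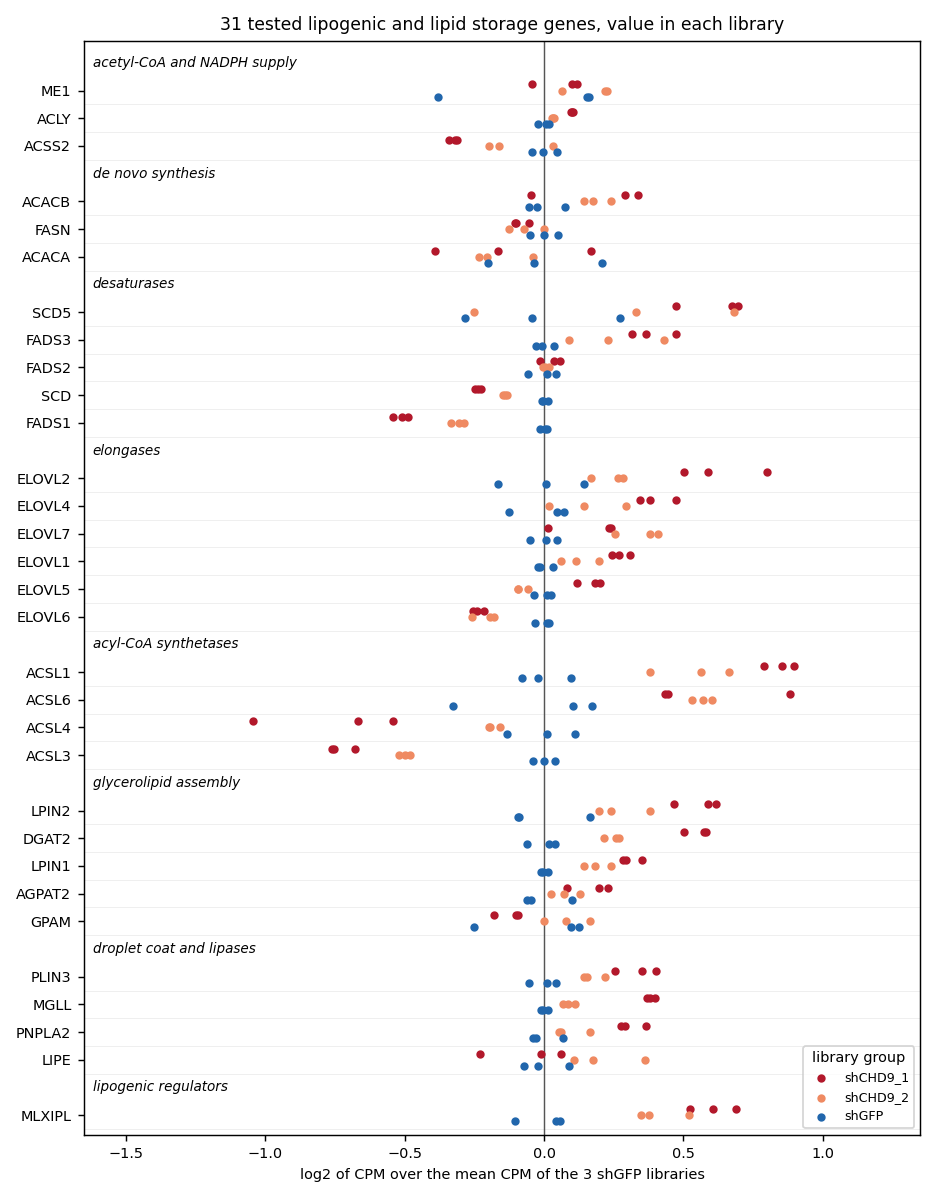
Level of each of the 31 tested genes in each of the 9 libraries, as the log2 of its CPM over the mean CPM of the 3 shGFP libraries, with genes grouped by role. The 6 CHD9 hairpin points lie right of all shGFP points for 12 genes and left of them for 5, and the widest shifts are among the acyl-CoA synthetases.

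As a pool of RNA the 34 genes were dominated by SCD, the stearoyl-CoA desaturase that makes oleate. Their summed level was 8030 ± 16.5 CPM with shCHD9_1, 8326 ± 35.8 CPM with shCHD9_2 and 8973 ± 20.0 CPM with shGFP (SD, n = 3 each). SCD alone made up 61.0% of it with shCHD9_1, 63.0% with shCHD9_2 and 64.4% with shGFP, and SCD and FASN together made up 77.5% with shCHD9_1, 79.1% with shCHD9_2 and 80.0% with shGFP. The sum was lower with each CHD9 hairpin, while more of the genes were called higher than lower. By role, the 5 desaturases summed to 5187 ± 36.1 CPM with shCHD9_1, 5556 ± 33.2 CPM with shCHD9_2 and 6145 ± 44.3 CPM with shGFP. The 5 acyl-CoA synthetases summed to 105 ± 3.09 CPM with shCHD9_1, 116 ± 2.34 CPM with shCHD9_2 and 149 ± 3.71 CPM with shGFP, most of it ACSL3, which had 77.8, 91.3 and 129 CPM in the means of shCHD9_1, shCHD9_2 and shGFP. Both of these pools were smaller in every CHD9 hairpin library than in any shGFP library. The 6 glycerolipid enzymes summed to 175 ± 3.53 CPM with shCHD9_1, 160 ± 2.56 CPM with shCHD9_2 and 143 ± 4.87 CPM with shGFP, and the 4 genes of the droplet coat and lipases to 196 ± 5.91 CPM with shCHD9_1, 172 ± 5.05 CPM with shCHD9_2 and 158 ± 4.99 CPM with shGFP, larger in every CHD9 hairpin library. The 6 elongases summed to 483 ± 4.08 CPM with shCHD9_1, 441 ± 8.80 CPM with shCHD9_2 and 448 ± 4.55 CPM with shGFP, above shGFP in mean with shCHD9_1 and below it with shCHD9_2. The 3 supply genes summed to 517 ± 1.4 CPM with shCHD9_1, 498 ± 1.76 CPM with shCHD9_2 and 489.8 ± 7.58 CPM with shGFP. The 3 genes of palmitate synthesis summed to 1348 ± 29.9 CPM with shCHD9_1, 1367 ± 58.4 CPM with shCHD9_2 and 1427 ± 49.6 CPM with shGFP. These sums were not tested.

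**Figure D2:**
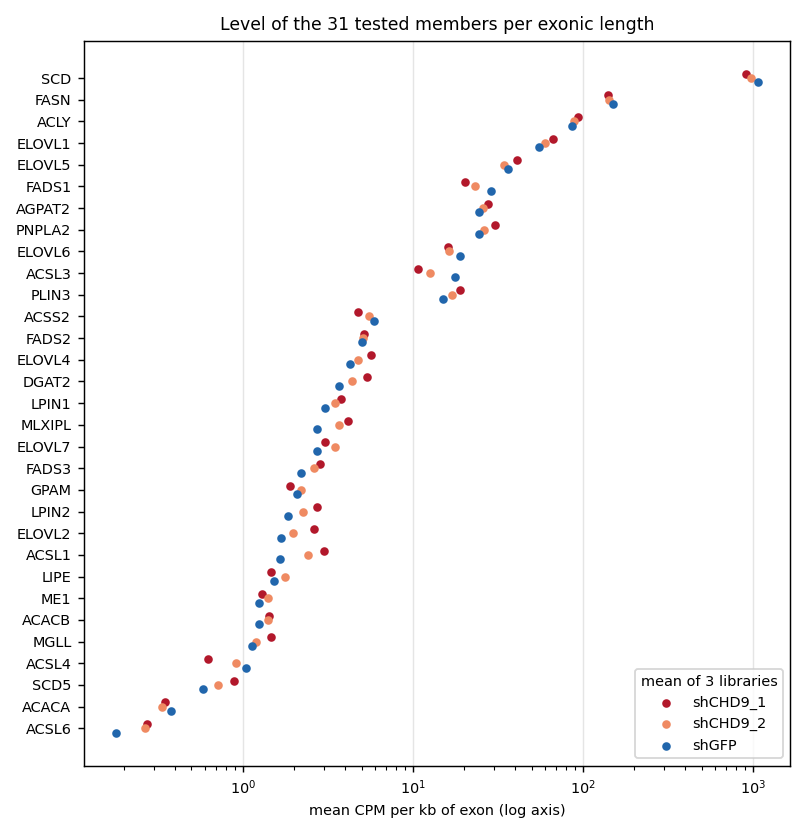
Mean level of each of the 31 tested genes in each group, in CPM per kilobase of exon on a log axis, ordered by the level with shGFP. SCD stands at 914, 978 and 1078 with shCHD9_1, shCHD9_2 and shGFP, several-fold above the next gene, FASN, and ACSL6 and ACACA are lowest. ACACA lies next to genes with few counts, so its place is shown as listed and not read as its level.

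Promoter sequence is shown for 4 genes that moved the same way with each hairpin, because they stand for the directions seen in the module: SCD, the most abundant, and ACSL3, the gene with the largest fall in the mean of both hairpins, and the droplet coat gene PLIN3 and the regulator MLXIPL, which rose. Each is the 250 bases before the start site, read 5′ to 3′ on the strand of the gene, from RefSeq on GRCh38.p14. SCD lies at chr10:100346983-100347232 on the plus strand, ACSL3 at chr2:222860786-222861035 on the plus strand, PLIN3 at chr19:4867668-4867917 on the minus strand and MLXIPL at chr7:73624523-73624772 on the minus strand. Capitals mark the CCAAT box, CCAAT on either strand, and the GC box, GGGGCGG on either strand, with overlapping matches allowed, and ACSL3 has 2 GC boxes that share a base.
SCD: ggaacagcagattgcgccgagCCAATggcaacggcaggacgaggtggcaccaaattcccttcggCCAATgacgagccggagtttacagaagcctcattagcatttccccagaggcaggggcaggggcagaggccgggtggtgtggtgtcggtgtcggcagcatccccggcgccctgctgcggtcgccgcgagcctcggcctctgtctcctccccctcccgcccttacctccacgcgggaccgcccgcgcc
ACSL3: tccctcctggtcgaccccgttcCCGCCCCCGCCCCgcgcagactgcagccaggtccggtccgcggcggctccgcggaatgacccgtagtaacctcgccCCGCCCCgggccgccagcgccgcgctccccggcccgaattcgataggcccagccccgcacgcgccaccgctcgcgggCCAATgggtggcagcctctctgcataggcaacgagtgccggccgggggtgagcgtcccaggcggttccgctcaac
PLIN3: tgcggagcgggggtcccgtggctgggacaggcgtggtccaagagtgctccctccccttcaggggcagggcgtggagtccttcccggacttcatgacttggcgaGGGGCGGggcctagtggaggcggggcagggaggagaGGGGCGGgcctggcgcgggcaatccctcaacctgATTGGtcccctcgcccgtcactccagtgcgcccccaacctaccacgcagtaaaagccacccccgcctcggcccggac
MLXIPL: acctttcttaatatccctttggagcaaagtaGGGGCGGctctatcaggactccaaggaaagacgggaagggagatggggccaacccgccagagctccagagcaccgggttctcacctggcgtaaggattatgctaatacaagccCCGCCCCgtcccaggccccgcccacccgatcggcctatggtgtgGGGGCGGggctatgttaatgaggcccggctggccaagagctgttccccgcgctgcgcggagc
The SCD window holds 2 CCAAT boxes, starting 229 and 186 bases before the start site, and no GC box. ACSL3 has 1 CCAAT box and 3 GC boxes, PLIN3 has 1 and 2, and MLXIPL has 3 GC boxes and no CCAAT box. Windows were given for 30 of the 34 genes, 51 in all because some genes have several start sites, each from 250 bases before to 50 after the start. FASN, DGAT1, DGAT2 and MGLL have no window among them. A CCAAT box was in 20 of the 51 windows (39.2%), beside 34.6% of the 35093 windows of all genes, and a GC box was in 23 (45.1%), beside 30.8%. The E-box CACGTG was in 3 (5.88%), in ELOVL4, ELOVL5 and LPIN2, beside 7.26%. A sterol regulatory element read as TCACNCCAC was in 3 (5.88%), in ACSL1, ACSL6 and PNPLA2, beside 1.13% of all windows. ACSL1 and ACSL6 each had it in 1 of several windows. The PPAR response element, searched as an exact DR1 repeat, was in none of the 51, beside 0.0228% of all windows. Windows of the same gene can overlap, as those of ACLY do, and genes with many start sites weigh more, so the windows are not independent. These matches describe the letters and no binding.

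Of the 3 module genes that supply acetyl-CoA and NADPH, ACLY was called slightly higher, ACSS2 was called lower and ME1 did not pass, in the mean of both hairpins. ACLY (ENSG00000131473.17, chromosome 17, 41866908 to 41930542, GRCh38 with GENCODE 29 annotation, as for all genes below) encodes ATP-citrate lyase and averaged 487 ± 1.21 CPM with shCHD9_1, 464 ± 1.16 CPM with shCHD9_2 and 454 ± 6.37 CPM with shGFP (SD, n = 3 each). Its log2 fold change in the mean of both hairpins was 0.07 (SE 0.02, adjusted p = 0.0056), a call that was lost with a correction for exonic GC content and length (0.03, adjusted p = 0.19) and without shGFP replicate 2 (0.06, adjusted p = 0.051). ACSS2, which makes acetyl-CoA from acetate, averaged 25.6 ± 0.257 CPM with shCHD9_1, 29.8 ± 2.6 CPM with shCHD9_2 and 32.1 ± 1.02 CPM with shGFP and fell by 0.32 with shCHD9_1 (SE 0.06, adjusted p = 2.4e-05). With shCHD9_2 its log2 fold change was -0.10 (adjusted p = 0.18), and -0.17 without shCHD9_2 replicate 1 (adjusted p = 0.033). ME1, the cytosolic malic enzyme, had 3.22 to 4.91 CPM over all libraries and a log2 fold change of 0.12 in the mean of both hairpins (adjusted p = 0.5). Of 10 further genes of citrate and NADPH supply, 3 were called higher and 6 lower. These counts, and those of the further lists given with the other roles, stand beside 22.3% of all genes called higher and 23.2% called lower. Citrate synthase, CS, averaged 654 ± 6.85 CPM with shCHD9_1, 598 ± 11.7 CPM with shCHD9_2 and 481 ± 12.1 CPM with shGFP with shCHD9_1, shCHD9_2 and shGFP and rose by 0.38 (SE 0.02, adjusted p = 1.5e-19). The transketolase gene TKT, of the pentose phosphate pathway, averaged 898 ± 2.12 CPM with shCHD9_1, 794 ± 9.34 CPM with shCHD9_2 and 700.3 ± 5.33 CPM with shGFP and rose by 0.27 (0.17 with the GC and length correction). IDH1, whose cytosolic enzyme yields NADPH, averaged 208 ± 4.65 CPM with shCHD9_1, 209 ± 1.01 CPM with shCHD9_2 and 257 ± 5.34 CPM with shGFP and fell by 0.30 (SE 0.02, adjusted p = 1.6e-14).

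Of the enzymes that build palmitate, FASN was at a similar level in all groups and fell slightly. FASN (ENSG00000169710.9, chromosome 17, 82078333 to 82098332) encodes fatty acid synthase and had 1354, 1305 and 1310 CPM with shCHD9_1, 1288, 1334 and 1403 CPM with shCHD9_2, and 1404, 1453 and 1355 CPM with shGFP. The libraries of shCHD9_1 lay just below those of shGFP, and those of shCHD9_2 overlapped with them. Its log2 fold change in the mean of both hairpins was -0.08 (SE 0.02, adjusted p = 0.0034), and -0.05 without shGFP replicate 2, where the call was lost (adjusted p = 0.095). The call with shCHD9_2 alone was lost in 7 of 15 alternatives, and without shCHD9_2 replicate 1 the log2 fold change there was -0.03 (adjusted p = 0.32). With the GC and length correction its log2 fold change was -0.28 (adjusted p = 9e-20), so that the size of its fall depends on that setting. The exonic GC content of FASN is 65.3%. ACACB, the mitochondrial acetyl-CoA carboxylase, averaged 20.8 ± 2.87 CPM with shCHD9_1, 20.5 ± 0.718 CPM with shCHD9_2 and 18.0 ± 0.858 CPM with shGFP and had a log2 fold change of 0.20 (SE 0.07, adjusted p = 0.015), a call that was lost with the GC and length correction (0.08, adjusted p = 0.37) and without shGFP replicate 2 or 3. With shCHD9_1 its call was lost in 6 of 15 alternatives, and with shCHD9_2 it was gained in 7, the fit with the replicate number as a block among them (0.19, adjusted p = 0.04). ACACA, the cytosolic carboxylase, had 81 to 135 counts per library and did not pass the test, and its counts are described with those of its neighbours below.

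Among the 5 desaturases, the pair with the highest levels per kilobase, SCD and FADS1, fell, and the pair with the lowest, FADS3 and SCD5, were called higher. SCD (ENSG00000099194.6, chromosome 10, 100347124 to 100364834) had 4870.0, 4937 and 4898 CPM with shCHD9_1, 5247, 5269 and 5211 CPM with shCHD9_2, and 5762, 5745 and 5828 CPM with shGFP. No library of any group overlapped with another group. SCD fell by 0.24 with shCHD9_1 (SE 0.02, adjusted p = 1.2e-15) and by 0.14 with shCHD9_2 (SE 0.02, adjusted p = 7.8e-09). FADS1 (ENSG00000149485.19, chromosome 11, 61799625 to 61829318), the delta-5 desaturase of polyunsaturated fatty acids, had 207, 210 and 202 CPM with shCHD9_1, 238, 241 and 234 CPM with shCHD9_2, and 292, 295 and 296 CPM with shGFP. Its groups were also fully apart. FADS1 fell by 0.51 with shCHD9_1 (SE 0.03, adjusted p = 1.9e-20) and by 0.31 with shCHD9_2 (SE 0.03, adjusted p = 4.8e-13).

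The other FADS genes of the cluster on chromosome 11 were not called lower with it, except FADS2 with the GC and length correction. FADS2 (61792980 to 61867354), the delta-6 desaturase, averaged 56.8 ± 1.43 CPM with shCHD9_1, 56.0 ± 0.440 CPM with shCHD9_2 and 55.8 ± 1.98 CPM with shGFP, with a log2 fold change of 0.02 in the mean of both hairpins (95% interval -0.06 to 0.09, adjusted p = 0.74). Its sign turned without shGFP replicate 3 (-0.012), and with that correction it was called lower (-0.12, adjusted p = 0.0041). FADS1 and FADS2 share 490 exonic bases on opposite strands, 4.79% of the exonic bases of FADS1 and 4.44% of those of FADS2, and because the strand setting of the counting is not given, reads there cannot be assigned to either gene. FADS3 (ENSG00000221968.9, 61873519 to 61892051), a related desaturase, had 19.1, 17.7 and 17.1 CPM with shCHD9_1, 18.5, 16.1 and 14.6 CPM with shCHD9_2, and 13.5, 13.7 and 14.1 CPM with shGFP, so that every CHD9 hairpin library was above every shGFP library. FADS3 rose by 0.38 with shCHD9_1 (SE 0.08, adjusted p = 0.00015) and by 0.26 with shCHD9_2 (SE 0.08, adjusted p = 0.012), and the call with shCHD9_2 was lost without shCHD9_2 replicate 1 (0.17, adjusted p = 0.13). SCD5, the other stearoyl-CoA desaturase, averaged 3.83 ± 0.318 CPM with shCHD9_1, 3.08 ± 0.955 CPM with shCHD9_2 and 2.50 ± 0.488 CPM with shGFP, and its call in the mean of both hairpins (0.43, SE 0.17, adjusted p = 0.031) was lost in 7 of 15 alternatives, among them 6 of the 9 that left out a library.

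Elongases were called in both directions. ELOVL6 (ENSG00000170522.9, chromosome 4, 110045846 to 110199199), which lengthens palmitate to stearate, averaged 118 ± 1.63 CPM with shCHD9_1, 120 ± 3.60 CPM with shCHD9_2 and 139 ± 2.61 CPM with shGFP. All 6 CHD9 hairpin libraries were below the shGFP libraries. It fell by 0.24 with shCHD9_1 (SE 0.03, adjusted p = 4.3e-08) and by 0.21 with shCHD9_2 (SE 0.03, adjusted p = 9.3e-07), and by 0.12 in the mean of both with the GC and length correction. ELOVL1, which makes very long saturated chains, averaged 167 ± 3.65 CPM with shCHD9_1, 151 ± 7.09 CPM with shCHD9_2 and 138 ± 2.82 CPM with shGFP and rose by 0.27 with shCHD9_1 (SE 0.03, adjusted p = 1.8e-09) and by 0.13 with shCHD9_2 (SE 0.03, adjusted p = 0.0017).

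The elongases of polyunsaturated and very long chains differed by hairpin. ELOVL2 (ENSG00000197977.4, chromosome 6, 10980759 to 11044314), which lengthens long polyunsaturated chains, had 10.1, 9.51 and 11.7 CPM with shCHD9_1, 8.09, 8.17 and 7.55 CPM with shCHD9_2, and 6.0, 6.75 and 7.42 CPM with shGFP. It rose by 0.63 with shCHD9_1 (SE 0.11, adjusted p = 4.1e-06), and with shCHD9_2 its log2 fold change was 0.23 (adjusted p = 0.1, and 0.33 with the GC and length correction, adjusted p = 0.014). The shCHD9_1 and shCHD9_2 libraries were all above those of shGFP, by a narrow gap for shCHD9_2. ELOVL4, which makes the longest chains, had 18.1, 16.5 and 17.0 CPM with shCHD9_1, 13.2, 14.4 and 16 CPM with shCHD9_2, and 13.5, 12 and 13.7 CPM with shGFP, so that only shCHD9_1 was apart from shGFP. It rose by 0.40 with shCHD9_1 (SE 0.08, adjusted p = 9.6e-05). With the GC and length correction that value was 0.62, and the value with shCHD9_2, 0.15 without it (adjusted p = 0.17), was 0.26 and passed (adjusted p = 0.01). ELOVL5 (ENSG00000012660.14, chromosome 6, 53267398 to 53349179), which lengthens shorter polyunsaturated chains, had 152, 160 and 158 CPM with shCHD9_1, 131, 134 and 131 CPM with shCHD9_2, and 140, 136 and 142 CPM with shGFP. The shCHD9_1 libraries were above and the shCHD9_2 libraries below those of shGFP.

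ELOVL5 was called higher with shCHD9_1 (0.17, SE 0.03, adjusted p = 1.4e-05) and lower with shCHD9_2 (-0.08, SE 0.03, adjusted p = 0.041), as 0.86% of all genes were called in opposite directions. The call with shCHD9_2 was lost in 10 of 15 alternatives, and the GC and length correction put it at -0.004 there, at 0.32 with shCHD9_1 and at 0.16 in the mean of both hairpins. ELOVL7, another elongase of long chains, averaged 14 ± 1.21 CPM with shCHD9_1, 15.9 ± 0.903 CPM with shCHD9_2 and 12.5 ± 0.425 CPM with shGFP and rose by 0.34 with shCHD9_2 (SE 0.08, adjusted p = 0.00078), and by 0.45 in the mean of both with the GC and length correction, against 0.26 without it. With shCHD9_1 it did not pass (0.17, adjusted p = 0.1), except with that correction (0.44) and without shCHD9_1 replicate 2 (0.24). Of 7 genes whose proteins work in the elongation cycle beside the elongases, 5 were tested, 1 was called higher and 2 lower. HACD2, a dehydratase of the cycle, averaged 190.4 ± 2.1 CPM with shCHD9_1, 180 ± 6.25 CPM with shCHD9_2 and 160 ± 4.82 CPM with shGFP and rose by 0.21 (0.33 with the GC and length correction). HSD17B12, its ketoacyl reductase, averaged 30.8 ± 0.173 CPM with shCHD9_1, 32.9 ± 2.05 CPM with shCHD9_2 and 38.6 ± 2.71 CPM with shGFP and fell by 0.28 (by 0.14 with that correction). The related dehydratase gene HACD1, at about 1 CPM or less, had a log2 fold change of -0.84 (SE 0.30, adjusted p = 0.021), a call that was lost in 5 of 14 alternatives.

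The acyl-CoA synthetases ACSL1, ACSL3 and ACSL6 had the 3 largest changes of the module in the mean of both hairpins, in opposite directions. ACSL3 (ENSG00000123983.14, chromosome 2, 222860934 to 222944639), whose enzyme activates fatty acids at the endoplasmic reticulum and on nascent droplets, had 76.2, 76.5 and 80.6 CPM with shCHD9_1, 90.1, 92.4 and 91.5 CPM with shCHD9_2, and 126, 132 and 129 CPM with shGFP. The 3 groups were fully apart. ACSL3 fell by 0.73 with shCHD9_1 (SE 0.04, adjusted p = 9.4e-22) and by 0.50 with shCHD9_2 (SE 0.03, adjusted p = 3.4e-16). ACSL1 (ENSG00000151726.14, chromosome 4, 184755595 to 184826818), the long-chain synthetase known from liver and fat tissue, had 18.9, 19.5 and 18.1 CPM with shCHD9_1, 13.6, 15.4 and 16.6 CPM with shCHD9_2, and 9.89, 11.2 and 10.3 CPM with shGFP. Its groups were fully apart in the other direction. ACSL1 rose by 0.84 (SE 0.08, adjusted p = 1.8e-11) with shCHD9_1 and by 0.54 (SE 0.09, adjusted p = 2e-06) with shCHD9_2.

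ACSL4 (ENSG00000068366.20, chromosome X, 109624244 to 109733403), which prefers arachidonic acid, had 4.21, 3.25 and 4.59 CPM with shCHD9_1, 5.99, 5.83 and 5.85 CPM with shCHD9_2, and 6.74, 6.09 and 7.23 CPM with shGFP. It fell by 0.73 with shCHD9_1 (SE 0.13, adjusted p = 1.2e-05), and with shCHD9_2 its log2 fold change was -0.19 (adjusted p = 0.26). With the GC and length correction the mean of both hairpins was -0.29, against -0.46 without it. ACSL6 (ENSG00000164398.15, chromosome 5, 131949973 to 132012243), a synthetase known from brain, had 3.17, 3.20 and 4.33 CPM with shCHD9_1, 3.57, 3.39 and 3.49 CPM with shCHD9_2, and 2.53, 2.65 and 1.87 CPM with shGFP. All CHD9 hairpin libraries were above those of shGFP. It rose by 0.63 (SE 0.18, adjusted p = 0.0034) with shCHD9_1 and by 0.58 (SE 0.18, adjusted p = 0.0088) with shCHD9_2, and these calls were lost without shGFP replicate 3 (adjusted p = 0.05 with shCHD9_1 and 0.1 with shCHD9_2), the first also without shCHD9_1 replicate 3 (0.46, adjusted p = 0.069). Of its exonic bases, 15.4% are shared with AC026398.1, which had 0 counts. ACSL5 had 8, 9 and 16 counts with shCHD9_1, 3, 11 and 2 with shCHD9_2, and 6, 2 and 6 with shGFP, too few for a test.

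**Figure D3:**
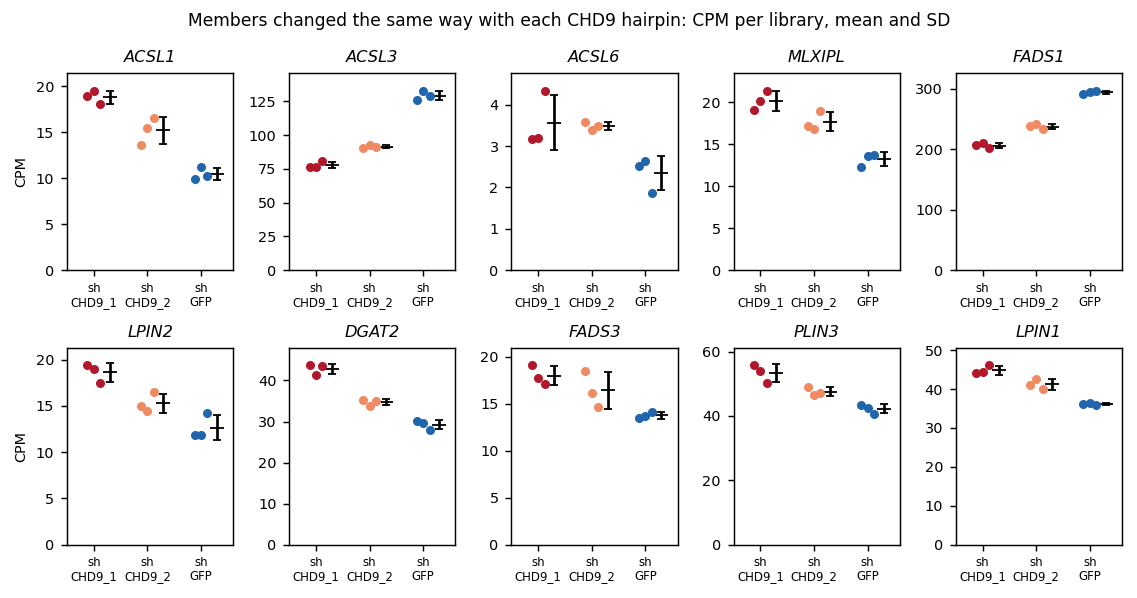
CPM in each library (points) and the mean with SD of 3 libraries (bars) for the 10 genes with the largest mean change among those called the same way with each CHD9 hairpin. ACSL3 and FADS1 are lower in all 6 CHD9 hairpin libraries than in any shGFP library, and the other 8 are higher.

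Of the 5 tested genes of the module that act in glycerolipid assembly, DGAT2, LPIN1, LPIN2 and AGPAT2 were called higher in the mean of both hairpins, the last of them not with the GC and length correction, and GPAM did not pass. DGAT2 (ENSG00000062282.15, chromosome 11, 75759512 to 75801535), which joins the last acyl chain of triacylglycerol, had 43.7, 41.4 and 43.5 CPM with shCHD9_1, 35.2, 33.9 and 35.0 CPM with shCHD9_2, and 30.1, 29.6 and 28.0 CPM with shGFP. The 3 groups were fully apart. DGAT2 rose by 0.56 with shCHD9_1 (SE 0.05, adjusted p = 4.9e-12) and by 0.25 with shCHD9_2 (SE 0.05, adjusted p = 0.00024). LPIN2 (ENSG00000101577.9, chromosome 18, 2916994 to 3013315), a phosphatidate phosphatase that makes the diacylglycerol for that step, had 19.4, 19.0 and 17.5 CPM with shCHD9_1, 14.9, 14.5 and 16.5 CPM with shCHD9_2, and 11.9, 11.9 and 14.2 CPM with shGFP. Libraries of both hairpins were above all shGFP libraries, with a narrow gap for shCHD9_2. LPIN2 rose by 0.55 (SE 0.08, adjusted p = 4e-07) with shCHD9_1 and by 0.26 (SE 0.08, adjusted p = 0.013) with shCHD9_2, where the call was lost without shCHD9_2 replicate 3 or shGFP replicate 1 or 2.

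LPIN1 (ENSG00000134324.12, chromosome 2, 11677595 to 11827409), of the same family, had 44.0, 44.4 and 46.1 CPM with shCHD9_1, 41.0, 42.7 and 40.0 CPM with shCHD9_2, and 36.1, 36.5 and 35.9 CPM with shGFP, with no overlap between groups. It rose by 0.31 with shCHD9_1 (SE 0.05, adjusted p = 1.1e-06) and by 0.19 with shCHD9_2 (SE 0.05, adjusted p = 0.0017). AGPAT2, which makes phosphatidate, averaged 50.03 ± 2.67 CPM with shCHD9_1, 46.8 ± 1.65 CPM with shCHD9_2 and 44.4 ± 2.80 CPM with shGFP, and its log2 fold change of 0.12 in the mean of both hairpins (SE 0.04, adjusted p = 0.021) lost its call without shGFP replicate 1 or 3 and turned to -0.04 with the GC and length correction. GPAM, the mitochondrial glycerol-3-phosphate acyltransferase, averaged 18.7 ± 0.608 CPM with shCHD9_1, 21.6 ± 1.23 CPM with shCHD9_2 and 20.4 ± 2.83 CPM with shGFP and passed with neither hairpin, although without shGFP replicate 1 it was called lower with shCHD9_1 (-0.23, adjusted p = 0.012). Of 11 other genes of glycerolipid and sterol ester synthesis, 9 were tested, 1 was called higher and 4 lower. GPAT4, an acyltransferase of the endoplasmic reticulum, averaged 181 ± 2.82 CPM with shCHD9_1, 168 ± 1.25 CPM with shCHD9_2 and 195 ± 2.03 CPM with shGFP and fell by 0.16 (SE 0.02, adjusted p = 4.1e-07). SOAT1, which esterifies cholesterol, averaged 64.0 ± 0.485 CPM with shCHD9_1, 66.9 ± 1.72 CPM with shCHD9_2 and 73.6 ± 1.12 CPM with shGFP and fell by 0.17. LCLAT1, an acyltransferase of lysophospholipids, averaged 21.9 ± 1.26 CPM with shCHD9_1, 23.8 ± 1.68 CPM with shCHD9_2 and 26.8 ± 1.80 CPM with shGFP and fell by 0.23. SOAT1 and LCLAT1 lost their calls with the GC and length correction (adjusted p = 0.2 and 0.16).

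PLIN2, PLIN3 and PLIN5 rose, and so did PLIN4, which passed the filter only because of its CHD9 hairpin libraries. PLIN3 (ENSG00000105355.9, chromosome 19, 4838341 to 4867768), which coats small and nascent droplets, had 55.7, 53.9 and 50.3 CPM with shCHD9_1, 49.1, 46.6 and 47.0 CPM with shCHD9_2, and 43.5, 42.5 and 40.6 CPM with shGFP, with no overlap between groups. PLIN3 rose by 0.34 with shCHD9_1 (SE 0.05, adjusted p = 1.3e-07) and by 0.17 with shCHD9_2 (SE 0.05, adjusted p = 0.0036). Of its exonic bases, 17.8% lie opposite AC027319.1, which had 10 counts in all. Of 15 other lipid droplet genes, 10 were tested, 6 were called higher and 2 lower, with a median log2 fold change of 0.38 and 3 over 2-fold. Of all genes tested, 22.3% were called higher, 23.2% lower and 2.91% over 2-fold, with a median of 0.0014. Of those over 2-fold, PLIN4 and G0S2 passed the filter only because of their CHD9 hairpin libraries. CIDEC, with 2, 7 and 0 counts with shGFP and at most 1 in each CHD9 hairpin library, was under the filter. The list was also chosen with earlier results of these data known, so its counts describe the list and test nothing.

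PLIN2 (ENSG00000147872.10, chromosome 9, 19108375 to 19149290), the perilipin found on droplets of most cells, had 17.7, 20.5 and 20.1 CPM with shCHD9_1, 16.5, 14.5 and 16.8 CPM with shCHD9_2, and 8.84, 11.1 and 11.8 CPM with shGFP. It rose by 0.72 in the mean of both hairpins (SE 0.08, adjusted p = 4e-10). PLIN5 (ENSG00000214456.8, chromosome 19, 4522531 to 4535224), known from tissues that oxidise fat, had 4.07, 4.45 and 4.25 CPM with shCHD9_1, 3.17, 2.50 and 2.69 CPM with shCHD9_2, and 0.842, 1.37 and 0.956 CPM with shGFP. All CHD9 hairpin libraries of both genes were above the shGFP libraries.

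PLIN5 rose by 1.69 in the mean of both hairpins (SE 0.19, adjusted p = 4.2e-10), and 21.7% of its exonic bases are shared with another annotated gene on the same strand, AC011498.4. PLIN4, its neighbour on chromosome 19 (4502180 to 4518465), had 27, 33 and 34 counts with shCHD9_1, 37, 54 and 14 with shCHD9_2, and 10, 7 and 6 with shGFP. It rose by 1.94 (SE 0.35, adjusted p = 8e-06) at 1.36 ± 0.101 CPM with shCHD9_1, 1.26 ± 0.532 CPM with shCHD9_2 and 0.355 ± 0.154 CPM with shGFP. PLIN1, the perilipin of fat cells, was under the filter and not tested. It averaged 0.1 CPM with shCHD9_1, 0.05 CPM with shCHD9_2 and 0.171 CPM with shGFP. Its mean was thus highest with shGFP, where that of PLIN4 was lowest, but it rests on 0 to 7 counts per library. A gene as low as these with shGFP could enter the test only by being higher with a CHD9 hairpin.

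The lipase genes PNPLA2 and MGLL were called higher with shCHD9_1, and LIPE was not. PNPLA2 (ENSG00000177666.17, chromosome 11, 818902 to 825573) encodes adipose triglyceride lipase, which releases the first fatty acid, and averaged 117 ± 4.0 CPM with shCHD9_1, 101 ± 4.38 CPM with shCHD9_2 and 94.5 ± 3.90 CPM with shGFP. It rose by 0.31 with shCHD9_1 (SE 0.04, adjusted p = 1.8e-09), and with shCHD9_2 its log2 fold change was 0.09 (adjusted p = 0.053). The correction for GC content and length lowered the first value to 0.10, where the call held (adjusted p = 0.0098), and turned the other to -0.02, and the mean of both hairpins lost its call (0.04, adjusted p = 0.26). The value with shCHD9_2 passed in 6 of 15 alternatives, 4 of them with a library left out. Of the exonic bases of PNPLA2, 10.4% lie opposite AP006621.1. MGLL (ENSG00000074416.14, chromosome 3, 127689062 to 128052190), which cleaves monoacylglycerol, had 17.4, 17.6 and 17.3 CPM with shCHD9_1, 14.5, 14.1 and 14.2 CPM with shCHD9_2, and 13.4, 13.6 and 13.3 CPM with shGFP. The groups did not overlap. MGLL rose by 0.38 with shCHD9_1 (SE 0.08, adjusted p = 4.7e-05, and 0.20 with the GC and length correction) and did not pass with shCHD9_2 (0.09, adjusted p = 0.41, and -0.011 with the correction), and its call in the mean of both was lost with that correction (0.10, adjusted p = 0.25). LIPE, the hormone-sensitive lipase, averaged 7.67 ± 0.788 CPM with shCHD9_1, 9.27 ± 0.863 CPM with shCHD9_2 and 7.96 ± 0.460 CPM with shGFP and did not pass with either hairpin. Of its exonic bases, 9.60% lie opposite LIPE-AS1.

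The regulators of the pathway were called in both directions. MLXIPL (ENSG00000009950.16, chromosome 7, 73593194 to 73624543) encodes the glucose-responsive factor ChREBP and had 19.0, 20.1 and 21.3 CPM with shCHD9_1, 17.2, 16.8 and 19.0 CPM with shCHD9_2, and 12.3, 13.6 and 13.8 CPM with shGFP. All 6 CHD9 hairpin libraries were above the shGFP libraries. MLXIPL rose by 0.61 with shCHD9_1 (SE 0.08, adjusted p = 1e-08, and 0.40 with the GC and length correction) and by 0.41 with shCHD9_2 (SE 0.08, adjusted p = 4.7e-05). THRSP, a thyroid-responsive lipogenic factor, had 0, 1 and 6 counts with shCHD9_1 and 0 counts in the other 6 libraries, where a count of 0 allows up to 3 counts, or 0.0925 to 0.158 CPM.

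Of 13 further regulators, 4 were called higher, 4 lower and 5 did not pass. SREBF1 (ENSG00000072310.17, chromosome 17, 17810399 to 17837002), which encodes SREBP-1, had 134, 121 and 133 CPM with shCHD9_1, 137, 137 and 140 CPM with shCHD9_2, and 109, 115 and 113 CPM with shGFP. It rose by 0.20 with shCHD9_1 (SE 0.04, adjusted p = 4.3e-06) and by 0.29 with shCHD9_2 (SE 0.03, adjusted p = 3.1e-09), and these became -0.02 with shCHD9_1 (adjusted p = 0.71) and 0.17 with shCHD9_2 with the GC and length correction. Of its exonic bases, 6.92% lie opposite RAI1, a gene with a similar number of counts. SREBF2 (ENSG00000198911.12, chromosome 22, 41833079 to 41907308), which encodes the sterol-controlled SREBP-2, had 432, 428 and 428 CPM with shCHD9_1, 437, 428 and 433 CPM with shCHD9_2, and 474, 486 and 464 CPM with shGFP. SREBF2 was thus lower in every CHD9 hairpin library, where SREBF1 was higher in every such library.

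SREBF2 fell by 0.14 in the mean of both hairpins (SE 0.02, adjusted p = 3.1e-07), and by 0.24 with the GC and length correction. INSIG1 (ENSG00000186480.13, chromosome 7, 155297776 to 155310235), which holds the SREBP complex in the endoplasmic reticulum and is itself an SREBP target, had 80.7, 79.4 and 84.8 CPM with shCHD9_1, 83.9, 86.7 and 89.0 CPM with shCHD9_2, and 108, 112 and 110 CPM with shGFP. No library with a CHD9 hairpin reached the shGFP libraries. INSIG1 fell by 0.43 (SE 0.04, adjusted p = 1.4e-13) with shCHD9_1 and by 0.35 (SE 0.04, adjusted p = 8.9e-11) with shCHD9_2.

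**Figure D4:**
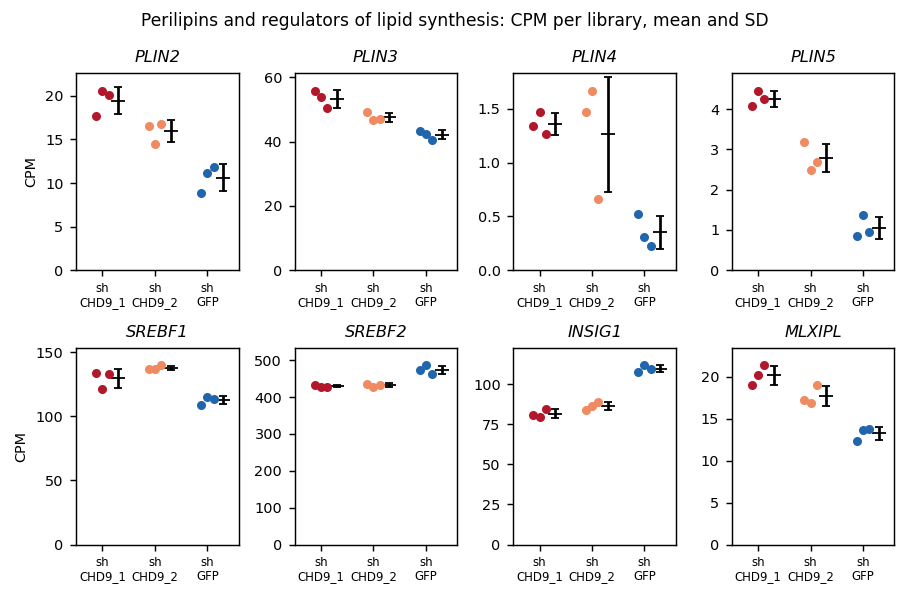
CPM in each library (points) and the mean with SD of 3 libraries (bars) for the perilipins PLIN2 to PLIN5 and the regulators SREBF1, SREBF2, INSIG1 and MLXIPL. The perilipins, SREBF1 and MLXIPL are higher in all 6 CHD9 hairpin libraries than in any shGFP library, and SREBF2 and INSIG1 are lower, where the rise of SREBF1 with shCHD9_1 turned to a log2 fold change of -0.02 with the GC and length correction.

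The hairpins were also compared with each other. Of the 31 genes, 12 were higher and 6 lower with shCHD9_1 than with shCHD9_2, where 29.2% of all genes tested were called, 15.6% higher and 13.6% lower. CHD9 itself was lower with shCHD9_1, with a log2 difference of -0.28 (SE 0.07, adjusted p = 0.0024), a call lost with the GC and length correction (-0.17, adjusted p = 0.068). The widest differences were of ACSL4 (a log2 difference of -0.54, SE 0.13, adjusted p = 0.0014) and ELOVL2 (0.40, SE 0.10, adjusted p = 0.0025). DGAT2 (0.31), ACSL1 (0.31), MGLL (0.29) and LPIN2 (0.29) were higher with shCHD9_1 than with shCHD9_2. In group means those 4 were highest with shCHD9_1, next with shCHD9_2 and lowest with shGFP. ELOVL5 differed by 0.25 (SE 0.03, adjusted p = 1.6e-08) and ELOVL4 by 0.25 (SE 0.08, adjusted p = 0.017). The call for ELOVL2 was lost without shCHD9_1 replicate 3 (0.30, adjusted p = 0.055), and that for ELOVL4 was lost without shCHD9_1 replicate 1 or shCHD9_2 replicate 1 or 2. The 13 genes that did not pass included FASN (95% interval of the difference -0.07 to 0.03), ELOVL6 (-0.09 to 0.04) and ACSL6 (-0.27 to 0.37).

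DGAT1, the other triacylglycerol synthase (chromosome 8, 144314584 to 144326910), was listed at 1 count in all 9 libraries together, in shGFP replicate 2. A run of neighbours on its upstream side was low too, and on the downstream side only HSF1 was. SCRT1, TMEM249, FBXL6, ADCK5 and a gene with no symbol had 0 counts in all, SLC52A2 and CPSF1 had 2 each and HSF1 had 1, whereas BOP1 with 46638, MAF1 with 68490 and CYC1 with 108016 counts lie within 300 kb. Of 33 protein-coding neighbours in that distance, 8 had under 10 counts, beside 26.3% of all 19928 protein-coding genes. That share does not take in that the 8 lie side by side around DGAT1, so it cannot tell whether the region stands apart. The reason for the low run next to DGAT1 is not known, and the counts of DGAT1 are given as listed and not read as its level. ACACA (chromosome 17, 37084988 to 37406818) had 991 counts in all, and its neighbours DUSP14 and C17orf78 had 1 and 0, SYNRG 34, TADA2A 450 and DDX52 864. Whether counts of ACACA were lost in the processing was not tested, and they too are given as listed and not read as its level.

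**Figure D5:**
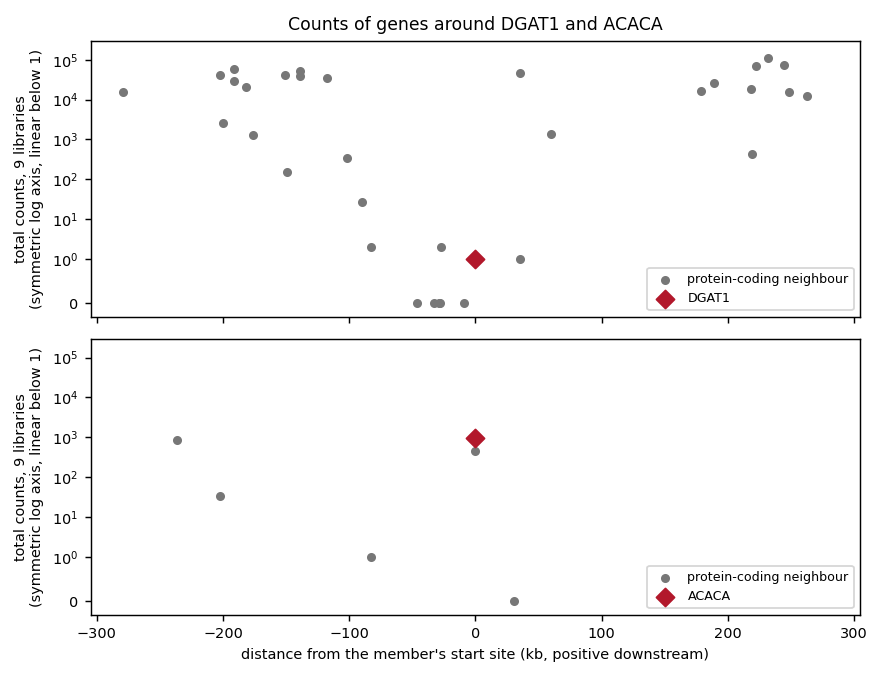
Total counts over the 9 libraries of DGAT1 and ACACA (diamonds) and of the protein-coding genes whose start lies within 300 kb (points), by distance from the start site of the gene, on an axis that is logarithmic above 1. DGAT1, with 1 count, sits in a run of neighbours at 0 to 2 counts, and ACACA, with 991, has neighbours at 0 to 864.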

How the data were processed

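The authors deposited raw counts per gene for 9 RNA-seq libraries of polyA RNA, made with a directional kit per the labels' protocols. The submitters' processing notes name Trim Galore, STAR, DESeq2 and the build hg38, without their roles. The counting program was not given in the sources used here, nor were its use of strand and its annotation. Gene names and coordinates came from GENCODE 29 on GRCh38.

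The counts were tested with edgeR 4.0.16 in R 4.3.3 (quasi-likelihood test, TMM scaling, filterByExpr with a minimum count of 10), with 1 mean for each of the 3 groups and Benjamini-Hochberg adjustment over 16855 genes. The edgeR fit was also run on simulated counts as a check of the code. That simulation gave all genes the same spread and does not test the calls given here. A gene was called at an adjusted p under 0.05. Fold changes are log2. Alternatives were DESeq2 1.42.0 size factors, its Wald test, no filter, at least 1 CPM in 6 libraries, a replicate block, a correction for exonic GC content and length (values existed for 97.8% of genes tested), and leaving out each library.

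The replicate numbers did not pair the libraries. Nothing says that replicates were separate cultures, so the p-values cover the spread between libraries, which may be technical. Members and lists were chosen with earlier results of these data known. Values per library were given for up to 10 members with the largest change called the same way with each hairpin, up to 8 with the largest difference between hairpins, 4 regulators and CHD9, and of each pathway list the 3 genes with the smallest p. Other members were given by their mean and SD. FASN, SCD, FADS1 and the perilipins outside the list were shown in more detail after their values were seen where the rule did not name them.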

Additional observations from a re-analysis of the deposited data

Results flagged for a closer look

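The hairpins differed from each other, by a test of shCHD9_1 against shCHD9_2 with edgeR's quasi-likelihood test, in 18 of the 31 tested genes. Of all genes tested, 29.2% were called in this comparison, 15.6% higher and 13.6% lower with shCHD9_1. The log2 differences of the 18 genes, shCHD9_1 over shCHD9_2, were positive for 12. They were 0.4 for ELOVL2, 0.31 for ACSL1, 0.31 for DGAT2, 0.29 for LPIN2, 0.29 for MGLL, 0.25 for ELOVL4 and 0.25 for ELOVL5. They were smaller for PNPLA2 (0.22), MLXIPL (0.2), PLIN3 (0.16), ELOVL1 (0.15) and ACLY (0.07). The differences were negative for 6 genes, at -0.54 for ACSL4, -0.23 for ACSL3, -0.22 for ACSS2, -0.21 for FADS1, -0.2 for GPAM and -0.1 for SCD. For ACSL1, ACSL3, FADS1, SCD, DGAT2, LPIN2, PLIN3, ELOVL1 and MLXIPL, which moved in 1 direction with both hairpins, the change against shGFP was the larger with shCHD9_1. The differences of MLXIPL and GPAM were lost in 7 of 15 alternatives each, those of ACLY in 5, that of PLIN3 in 2 and that of ACSS2 without shCHD9_2 replicate 1 (-0.15, adjusted p = 0.072). With the correction for GC content and length the difference was -0.11 for ACSL3 and 0.12 for PNPLA2.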

How the results depend on the processing

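Averaged over both hairpins, 25 of the 31 genes were called, and 22 to 25 in the alternatives that kept all libraries, with 21 to 25 when a library was left out. These totals hide a shift in direction with the correction for GC content and length. It removed the higher calls of ACLY, ACACB, AGPAT2, PNPLA2 and MGLL, and added ELOVL5 as higher and FADS2 as lower. With shCHD9_1 the calls were 25 (23 to 26 with a library left out), with shCHD9_2 16 (14 to 17), and between the hairpins 18 (14 to 18). With a library left out, calls over all genes tested were 6625 to 7573 for the mean of both hairpins (7675 with all libraries), 7128 to 8106 with shCHD9_1 (7972), 5133 to 5977 with shCHD9_2 (6009) and 3940 to 4944 between the hairpins (4921). The alternatives that kept all libraries gave 6814 to 7669, 7145 to 7976, 5087 to 6111 and 4124 to 4959 for these comparisons. The replicate numbers are shared by the groups, but libraries of the same number did not deviate together (correlations of -0.0223 to 0.0395 over 9 pairs), and 3 of 9 libraries correlated best with a library of their own number. With the replicate block 25 of the 31 genes and 7669 of all genes were called for the mean of both hairpins, and ACACB with shCHD9_2 was the 1 call of these genes that changed.

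Signs turned for values that had not passed, or with the correction for GC content and length. With that correction the log2 fold changes in the mean of both hairpins were -0.122 for FADS2, 0.047 for GPAM, -0.039 for AGPAT2 and -0.048 for LIPE. With shCHD9_1 it gave -0.152 for FADS2, -0.026 for AGPAT2 and -0.017 for SREBF1, and with shCHD9_2 -0.091 for FADS2, -0.052 for AGPAT2, -0.02 for PNPLA2 and -0.011 for MGLL. With a library left out, the mean of both hairpins ranged between -0.043 and 0.215 for ME1, between -0.012 and 0.039 for FADS2 and between -0.134 and 0.035 for GPAM. With shCHD9_1 the ranges were -0.093 to 0.165 for ME1, -0.002 to 0.05 for FADS2 and -0.107 to 0.022 for LIPE, and with shCHD9_2 they were -0.022 to 0.028 for FADS2 and -0.035 to 0.134 for GPAM. The cause was not tested. With about 1 CPM or less, ACSL5, DGAT1 and THRSP were too shallow for a fold change.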

Other observations

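Genes that take up, bind and burn fatty acids were called in both directions, as were all genes tested, of which 22.3% were called higher and 23.2% lower. Of 14 genes of uptake and binding, 11 were tested, and 3 were called higher and 2 lower in the mean of both CHD9 hairpins, with a median log2 fold change of 0.02. Only 1 of them was called over 2-fold, beside 2.91% of all genes. It was CD36, looked up after its value was seen, which had 9 to 29 counts per library and fell by 1.06 (SE 0.30). FABP5, a fatty acid binding protein, averaged 97.6 ± 2.49 CPM with shCHD9_1, 89.5 ± 6.66 CPM with shCHD9_2 and 78.1 ± 1.25 CPM with shGFP and rose by 0.26 (SE 0.04, adjusted p = 4.5e-08, edgeR's quasi-likelihood test). SLC27A5, an acyl-CoA synthetase of the fatty acid transport family, averaged 19.1 ± 1.5 CPM with shCHD9_1, 18.9 ± 0.380 CPM with shCHD9_2 and 15.5 ± 0.868 CPM with shGFP and rose by 0.29. Of its exonic bases, 14.1% are shared with ZNF446. ACBD3, an acyl-CoA binding domain protein of the Golgi, averaged 109 ± 0.944 CPM with shCHD9_1, 119 ± 2.38 CPM with shCHD9_2 and 123 ± 4.37 CPM with shGFP, and its fall of 0.11 was lost with the GC and length correction.

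Of 20 genes of mitochondrial fatty acid oxidation, 4 (beside 22.3% of all genes) were called higher, 7 (beside 23.2%) lower and 9 did not pass, with a median log2 fold change of 0.0058. CPT1A, which admits long-chain acyl groups to mitochondria, averaged 151 ± 1.97 CPM with shCHD9_1, 142 ± 2.50 CPM with shCHD9_2 and 124 ± 2.47 CPM with shGFP and rose by 0.25 (SE 0.03, adjusted p = 2.7e-10). ACAA2, the thiolase of the last step of the cycle, averaged 9.36 ± 0.956 CPM with shCHD9_1, 11.1 ± 0.389 CPM with shCHD9_2 and 16.3 ± 1.55 CPM with shGFP and fell by 0.68 (SE 0.08, adjusted p = 3.2e-10). DECR1, which prepares unsaturated chains for oxidation, averaged 61.8 ± 4.08 CPM with shCHD9_1, 67.4 ± 1.31 CPM with shCHD9_2 and 77.9 ± 0.756 CPM with shGFP and fell by 0.27 (SE 0.04, adjusted p = 2.2e-08).

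The partners of the lipase PNPLA2 were looked up after their values were seen. Its activator ABHD5 averaged 25.5 ± 1.90 CPM with shCHD9_1, 28.7 ± 0.953 CPM with shCHD9_2 and 33.0 ± 0.980 CPM with shGFP and fell by 0.29 (SE 0.05, adjusted p = 8e-06). Its inhibitor G0S2 averaged 1.18 ± 0.451 CPM with shCHD9_1, 0.951 ± 0.140 CPM with shCHD9_2 and 0.521 ± 0.118 CPM with shGFP and rose by 1.02 (SE 0.32, adjusted p = 0.0075). G0S2 had only 9 to 37 counts per library and passed the filter because of its CHD9 hairpin libraries. With shCHD9_2 alone it did not pass (0.87, adjusted p = 0.053, edgeR's quasi-likelihood test).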
